A study of Mus musculus with 4 samples.

Results

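The genes described here are 46 genes of DNA replication and S phase, the part of the cell cycle in which the genome is copied. They were chosen by a list of gene symbols, drawn up with earlier results of these data known. All 46 had a probe set (the group of probes that gives 1 value per array) annotated with that symbol alone, out of 19938 such genes on the array. The probe set with the highest mean represented a gene with several, which concerned Pcna and Tk1. Whether each probe set of these 2 genes reads the gene itself or a copy elsewhere in the genome could not be checked, so their values are uncertain. The tissue was whole brain of mouse fetuses at embryonic day 16, of the inbred strain C57BL/6J. In the ethanol group, pregnant females had received ethanol in saline at 2.5 g per kg by injection on gestational days 14 and 16. In the control group they had received saline of equal volume. Each group had 2 arrays and each array carried RNA pooled from 3 mice (12 mice in all), and the sex of the fetuses is labelled unknown. The comparison concerns the transcripts of the fetal brain shortly after ethanol. Of each pair of values below, pool 1 of a group is given before pool 2.

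Replication starts at origins that are bound by the origin recognition complex, ORC, which loads the ring-shaped MCM helicase with the help of Cdc6 and Cdt1. Cdc45 and the GINS complex then switch the helicase on, polymerases copy both strands behind it, and the sliding clamp PCNA keeps polymerases on the template. Many of these genes are transcribed late in G1 under E2F transcription factors. In the fetal brain S phase is a property of dividing progenitors near the ventricles and of dividing non-neural cells, while neurons have left the cell cycle.

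All values are deposited log2 brightness values, so a difference of 1 is a doubling. The medians of the arrays were 8.04 and 8.01 for ethanol 1 and ethanol 2 and 8.04 and 8.01 for control 1 and control 2. Only Orc1 and Gmnn lay below the lower quartile of every array (6.45 to 6.55), at the dim end where real levels are hard to tell from background. All 12 markers of postmitotic neurons and 11 of 12 radial glia markers lay above the array median on all 4 arrays. The pools differed in other tissues and in sex-linked genes. Control 1 was the highest array in 16 of 16 skeletal muscle genes, whose median level was 7.45 and 8.48 in ethanol 1 and ethanol 2, against 9.88 and 7.48 in control 1 and control 2. Xist, transcribed from the inactive X chromosome of females, was at 11.96 and 12.80 in the ethanol pools, against 6.10 in control 1 and 12.84 in control 2. In pooled whole brains, fewer dividing cells and less RNA per dividing cell cannot be told apart.

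Most replication genes had lower means in ethanol brains by small amounts, and no gene passed the test over all genes. The mean was lower in ethanol for 38 of the 46 genes (82.6%), against 45.8% of all genes. The median log2 difference, ethanol minus control, was -0.07 over the 46 genes and 0.01 over all genes. Values ran from -0.33 for Pola1, which is 0.794 times the control level, to 0.10 for Gins3. Limma tests each gene with its own variance, drawn toward a value estimated from all genes. It called 0 of the 46 at an adjusted p under 0.05, where it called 0.0% of all genes. The smallest adjusted p among the 46 was 0.980. Before adjustment, 2 of the 46 genes (Pola1 and Mcm6) were lower in ethanol at p under 0.05, as were 1.36% of all genes, and 0 were higher, as were 1.58% of all genes. Both ethanol arrays lay below both control arrays in 13 of the 46 (28.3%, against 14.0% of all genes) and above both in 2 (4.35%, against 17.4%). The groups overlapped in the other 31.

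**Figure D1:**
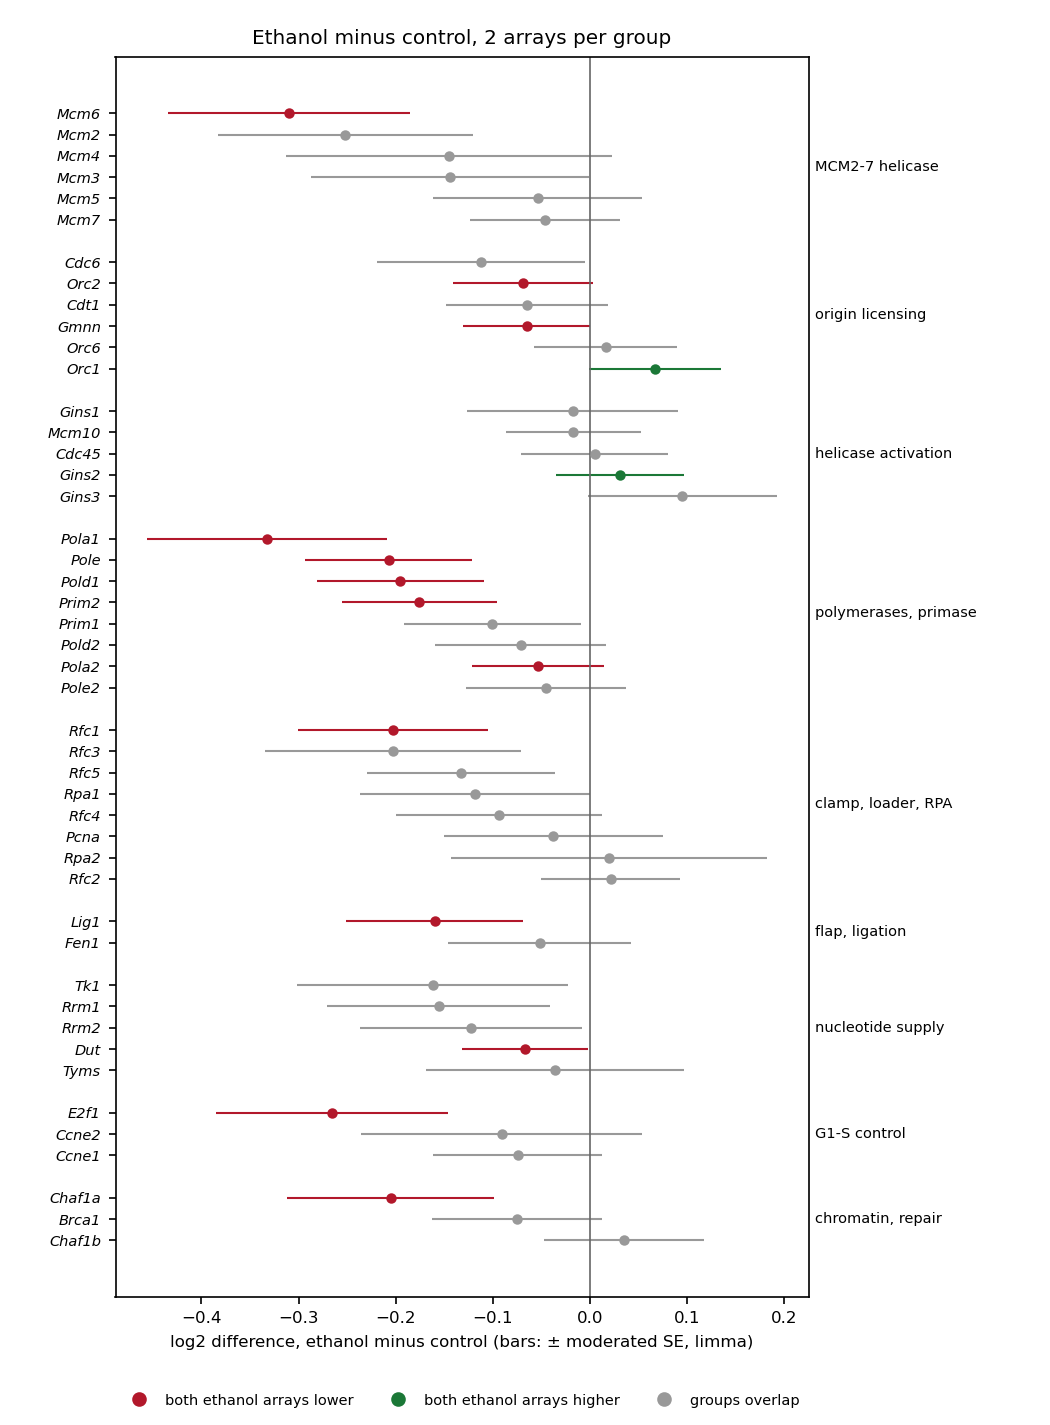
Log2 difference, ethanol minus control, of each of the 46 genes by role (2 arrays per group, bars are ± 1 moderated standard error from limma). Red marks the 13 genes with both ethanol arrays below both control arrays, green the 2 with both above, grey the 31 whose groups overlap. All polymerase and primase, MCM helicase subunit and nucleotide supply genes of the 46 lie left of 0.

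The direction depended on which pools were set against each other. In the 46 genes control 1 was the highest array 38 times (82.6%, against 26.8% of all genes) and ethanol 1 the lowest 33 times (71.7%, against 24.9%). Both held together in 29 genes (63.0%, against 13.7%). Ethanol 1 minus control 1 gave a median of -0.25 (0.03 over all genes), with 43 of 46 genes below 0. Ethanol 1 minus control 2 gave a median of -0.07 (0.02 over all genes), with 35 below 0. Ethanol 2 minus control 1 gave -0.09 (-0.0046 over all genes), with 38 below 0. Ethanol 2 minus control 2 went the other way, at 0.05 (-0.01 over all genes), with 16 below 0 and 30 above. The 4 pairs share arrays, so they are not independent comparisons. All 4 pairs were below 0 in 13 genes and 3 of them in 19 genes, while 2 were in 11 genes, 1 was in 1 gene and none in 2 genes.

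Pools of the same group differed by as much. Ethanol 1 minus ethanol 2 had a median of -0.15 (42 of 46 genes below 0), and control 1 minus control 2 had a median of 0.15 (41 of 46 above 0). Over all genes these medians were 0.03 and -0.01. In 9 of the 46 genes (19.6%, against 19.0% of all genes) the difference between group means exceeded both differences between pools of a group. Without control 1 there were 28 of 46 genes below 0, at a median of -0.02, and without ethanol 1 there were 27 below 0, at a median of -0.02. Without control 2 and without ethanol 2 the count was 41 in each case, at medians of -0.16 and -0.16. Whether ethanol or a difference between pools underlies the shift cannot be told apart with 2 pools in each group.

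**Figure D2:**
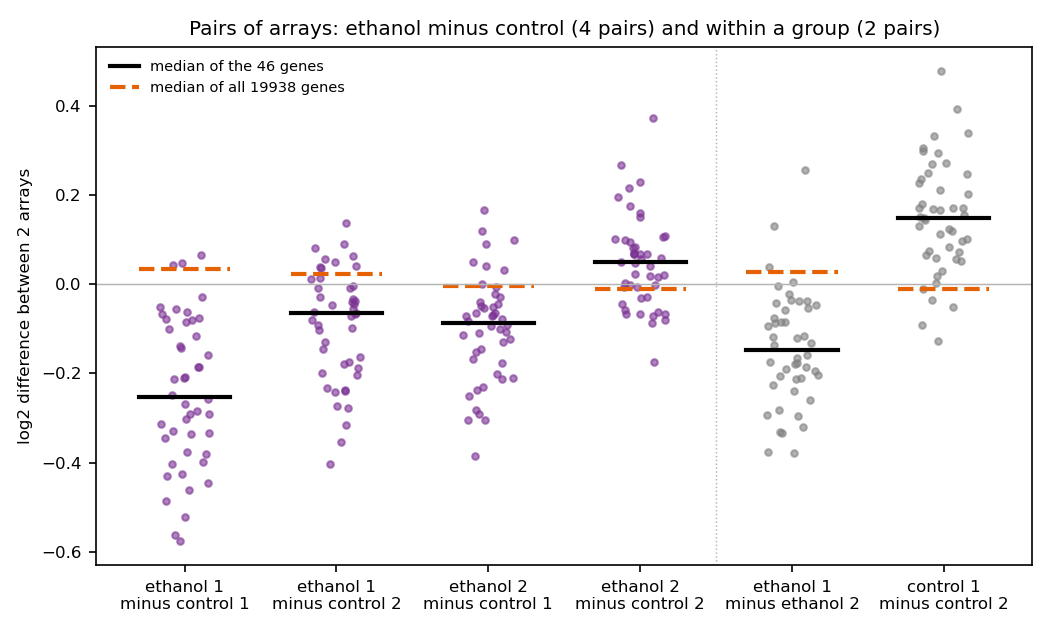
Log2 difference between 2 arrays for each of the 46 genes (points), for the 4 ethanol minus control pairs and, right of the dotted line, the 2 pairs within a group. Black bars are medians of the 46 genes and dashed orange bars medians of all 19938 genes. The median is -0.25 in ethanol 1 minus control 1, 0.05 in ethanol 2 minus control 2 and 0.15 in control 1 minus control 2.

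The promoters were searched for letters known from cell cycle genes, as a description with no test. RefSeq promoter windows of build GRCm38.p6 (250 bases before to 50 after the start, 300 in all) were at hand for 38 of the 46. E2F-type letters (TTTCCCGC, TTTGGCGC, TTTCGCGC or TTTGCCGC, on either strand) were found in 13 of the 38 (34.2%), against 2.6% of 27025 genes with a window and 3.29% of the 17492 protein-coding ones. The letters CCAAT, bound by NF-Y, were found in 60.5% of the 38 and 41.1% of all. The letters TTTGAA, one form of the cell cycle homology region of mitotic genes, were found in 13.2% and 20.2%. A gene with several windows counted once, if any window matched. The 13 genes with E2F-type letters had a median log2 difference of -0.11, with 11 below 0, and the 25 without had -0.07, with 21 below 0. A match is a description of letters and not a site shown to be bound, and a missing match says only that these letters are not in the window.

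The windows of the 4 genes with E2F-type letters and the smallest p are shown, 5′ to 3′ on the gene's strand, so that the letters can be read beside the values of these genes. Capitals mark the E2F-type letters on either strand. Pola1 lies on the minus strand at chrX:93632106-93632405, with TTTGGCGC on the opposite strand from position -138 to -131 relative to the start. Mcm6 lies on the minus strand at chr1:128359656-128359955. It has 3 matches, TTTGGCGC from -110 to -103, TTTCGCGC on the opposite strand from -106 to -99, which overlaps the first, and TTTGGCGC from -47 to -40. Pold1 lies on the minus strand at chr7:44548766-44549065, with TTTCCCGC on the opposite strand from 40 to 47 after the start. Lig1 lies on the plus strand at chr7:13278576-13278875, with TTTCGCGC on the opposite strand from 27 to 34 after the start. Lig1 has 3 windows, and the one shown was taken because it has a match.
Pola1: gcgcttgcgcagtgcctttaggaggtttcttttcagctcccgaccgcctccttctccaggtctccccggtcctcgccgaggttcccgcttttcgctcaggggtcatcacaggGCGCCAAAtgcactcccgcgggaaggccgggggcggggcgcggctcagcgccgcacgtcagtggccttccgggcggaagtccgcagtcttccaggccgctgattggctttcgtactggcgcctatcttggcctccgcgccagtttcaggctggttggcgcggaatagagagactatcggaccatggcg
Mcm6: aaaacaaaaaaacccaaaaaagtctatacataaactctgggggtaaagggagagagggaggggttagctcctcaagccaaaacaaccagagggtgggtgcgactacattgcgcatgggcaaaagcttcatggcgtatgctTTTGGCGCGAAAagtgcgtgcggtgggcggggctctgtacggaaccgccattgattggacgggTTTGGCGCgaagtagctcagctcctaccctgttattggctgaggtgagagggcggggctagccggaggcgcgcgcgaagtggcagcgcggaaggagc
Pold1: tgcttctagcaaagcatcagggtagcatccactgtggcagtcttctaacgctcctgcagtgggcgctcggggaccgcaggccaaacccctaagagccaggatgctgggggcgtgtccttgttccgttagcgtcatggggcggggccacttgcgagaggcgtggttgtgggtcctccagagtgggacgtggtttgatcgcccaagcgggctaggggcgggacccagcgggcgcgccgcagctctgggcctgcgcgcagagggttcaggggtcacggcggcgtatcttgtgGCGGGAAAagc
Lig1: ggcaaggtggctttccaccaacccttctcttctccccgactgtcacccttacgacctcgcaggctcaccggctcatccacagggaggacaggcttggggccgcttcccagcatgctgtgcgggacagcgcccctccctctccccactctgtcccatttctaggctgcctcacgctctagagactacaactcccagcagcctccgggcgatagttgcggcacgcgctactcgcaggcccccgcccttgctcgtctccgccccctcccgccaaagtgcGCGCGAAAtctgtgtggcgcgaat

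The MCM helicase, which unwinds DNA at the fork, was lower in ethanol in all 6 subunits, with a median of -0.14 and no subunit past the adjusted test. Mcm6 stood at 8.62 and 8.88 in ethanol 1 and ethanol 2, against 9.19 and 8.94 in control 1 and control 2, a difference of -0.31 ± 0.12 (SE, as throughout). Both ethanol pools lay below both control pools, ethanol 2 by 0.06 below control 2. Mcm2 stood at 8.70 and 8.99 in the ethanol pools, against 9.22 and 8.97 in the control pools, at -0.25 ± 0.13. Here ethanol 2 lay just above control 2, so the groups overlapped. Mcm7 stood at 9.65 and 9.77 in the ethanol pools, against 9.79 and 9.72 in the control pools, at -0.05 ± 0.08. Mcm4 (-0.145 ± 0.168), Mcm3 (-0.14 ± 0.14) and Mcm5 (-0.05 ± 0.11) overlapped too. In all 6 subunits ethanol 1 was the lowest array and control 1 the highest. Ethanol 2 exceeded control 2 in 5 of the 6, with a median of 0.10.

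The genes that load the helicase at origins showed smaller differences, with 4 of 6 below 0 and a median of -0.06. Orc6, an ORC subunit, stood at 9.98 and 10.03 in the ethanol pools, against 10.04 and 9.94 in the control pools, at 0.02 ± 0.07. Orc1, an ATP-binding ORC subunit, stood at 5.61 and 5.66 in the ethanol pools, against 5.54 and 5.59 in the control pools, at 0.07 ± 0.07. Both ethanol values were the higher ones, at a level in the dim range. Cdc6, the loading ATPase, stood at -0.11 ± 0.11, with ethanol 2 the lowest array. Ethanol 1 was the lowest array in 3 of the 6 genes. Orc2 (-0.07 ± 0.07), Cdt1, the partner of Cdc6 in loading (-0.06 ± 0.08), and Gmnn, the Cdt1 inhibitor geminin (-0.06 ± 0.07), lay between Cdc6 and 0. Orc2 and Gmnn had both ethanol pools below both control pools, although Orc2 was at 9.74 in ethanol 2 and 9.75 in control 2, and Gmnn lay in the dim range.

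The factors that activate the loaded helicase were the group nearest to 0, with 2 of 5 below 0 and a median of 0.00. Gins3, a GINS subunit, stood at 7.24 and 7.42 in the ethanol pools, against 7.32 and 7.15 in the control pools, at 0.10 ± 0.10. Gins2 stood at 7.93 and 7.93 in the ethanol pools, against 7.88 and 7.92 in the control pools, at 0.03 ± 0.07. The ethanol values of Gins2 were the higher ones, by at most 0.05. Gins1 stood at 7.997 and 8.12 in the ethanol pools, against 8.21 and 7.94 in the control pools, at -0.02 ± 0.11, and its groups overlapped. Cdc45, the helicase cofactor, stood at 0.00 ± 0.08, and Mcm10, which also acts in helicase activation, at -0.02 ± 0.07. Ethanol 2 exceeded control 2 in all 5.

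The 8 DNA polymerase and primase genes among the 46 were all lower in ethanol, with a median of -0.14. In 5 of the 8 both ethanol pools lay below both control pools (62.5%, against 14.0% of all genes). Polymerase subunits outside the 46 went both ways. Pold4 stood at -0.26 ± 0.07, while Pold3 (0.03 ± 0.07), Pole4 (0.02 ± 0.07) and Pole3 (0.17 ± 0.08) lay above 0. Pola1, the catalytic subunit of polymerase alpha that starts each new strand with primase, stood at 8.12 and 8.31 in the ethanol pools, against 8.69 and 8.39 in the control pools. The difference of -0.33 ± 0.12 was the lowest of the 46 genes with all arrays, with ethanol 1 lowest and control 1 highest. It came to -0.183 without control 1, where E2f1 (-0.236) and Mcm6 (-0.187) were lower, and to -0.48 without control 2. Without ethanol 2 it was -0.428, and Mcm6 (-0.440) and E2f1 (-0.432) were lower. Pole, the catalytic subunit of the leading-strand polymerase epsilon, stood at 8.71 and 8.79 in the ethanol pools, against 9.05 and 8.87 in the control pools, at -0.21 ± 0.09. Pold1, the catalytic subunit of the lagging-strand polymerase delta, stood at 7.98 and 8.10 in the ethanol pools, against 8.31 and 8.16 in the control pools, at -0.20 ± 0.09. Prim2, the large primase subunit, stood at 9.496 and 9.63 in the ethanol pools, against 9.78 and 9.70 in the control pools, at -0.18 ± 0.08. In these 4 genes ethanol 2 was below control 2 by 0.06 to 0.09, a smaller gap than that between the pools of either group. Pold2, an accessory subunit of polymerase delta, stood at 9.58 and 9.74 in the ethanol pools, against 9.79 and 9.67 in the control pools, at -0.07 ± 0.09. Prim1, the small catalytic primase subunit, stood at -0.10 ± 0.09, Pola2 at -0.05 ± 0.07 and Pole2 at -0.05 ± 0.08. Ethanol 1 was the lowest array in all 8 genes.

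Among the clamp, its loader and the single-strand binding protein RPA, 6 of 8 genes were below 0, at a median of -0.11. Rfc1, the large subunit of the clamp loader, stood at 8.88 and 9.05 in the ethanol pools, against 9.25 and 9.08 in the control pools, at -0.20 ± 0.10, with both ethanol pools lower. Rfc3 (-0.20 ± 0.13), Rfc5 (-0.13 ± 0.10), Rfc4 (-0.09 ± 0.11) and Rfc2 (0.02 ± 0.07), the small subunits of the loader, had groups that overlapped. Pcna, the clamp, stood at 11.96 and 12.24 in the ethanol pools, against 12.07 and 12.20 in the control pools, at -0.04 ± 0.11. Its other probe set gave -0.04 ± 0.12 in the test of all probe sets. Pcna is 1 of 8 genes whose highest array was not control 1. Rpa1 stood at -0.12 ± 0.12 and Rpa2 at 0.02 ± 0.16. Ethanol 1 was below control 2 in all 8 genes, and ethanol 2 was above control 2 in 6.

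Of the enzymes that finish the lagging strand, Lig1, the ligase that seals nicks, stood at 8.73 and 8.94 in the ethanol pools, against 9.02 and 8.97 in the control pools. Both ethanol pools were the lower ones, ethanol 2 by 0.03, at a difference of -0.16 ± 0.09. Fen1, the flap nuclease, stood at -0.05 ± 0.09 with groups that overlapped. The genes of nucleotide supply were below 0 in 5 of 5, at a median of -0.12. Rrm1, the large subunit of ribonucleotide reductase, stood at 10.33 and 10.55 in the ethanol pools, against 10.72 and 10.48 in the control pools, at -0.16 ± 0.11. Tk1, thymidine kinase, stood at -0.16 ± 0.14, and its other probe set at -0.30 ± 0.16 in the test of all probe sets, with 7.30 and 7.16 in the ethanol pools, against 7.74 and 7.33 in the control pools. The groups overlapped in the brighter probe set of Tk1 and not in this one. Rrm2, the small reductase subunit, stood at -0.12 ± 0.11, Dut, the dUTPase that keeps uracil out of DNA, at -0.07 ± 0.06, and the thymidylate synthase Tyms at -0.04 ± 0.13. Control 1 was the highest array in all 5, and ethanol 2 exceeded control 2 in 4 of the 5.

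The genes that control entry into S phase were below 0 in 3 of 3, at a median of -0.09. E2f1, a transcription factor that drives S phase genes, stood at 7.62 and 7.95 in the ethanol pools, against 8.08 and 8.02 in the control pools, at -0.27 ± 0.12. Ethanol 1 stood apart from the other 3 pools, which lay within 0.13. Cyclin Ccne1, which activates the kinase Cdk2 at the G1 to S transition, stood at 9.16 and 9.03 in the ethanol pools, against 9.24 and 9.09 in the control pools, at -0.07 ± 0.09. Its relative Ccne2 stood at -0.09 ± 0.14. Of the chromatin assembly factor that places histones behind the fork, Chaf1a stood at 8.06 and 8.28 in the ethanol pools, against 8.46 and 8.29 in the control pools, at -0.21 ± 0.11. Ethanol 2 and control 2 differed by 0.01 in Chaf1a. Its partner Chaf1b stood at 9.59 and 9.55 in the ethanol pools, against 9.62 and 9.45 in the control pools, at 0.04 ± 0.08. Brca1, a repair factor that acts at stalled forks, stood at -0.07 ± 0.09.

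**Figure D3:**
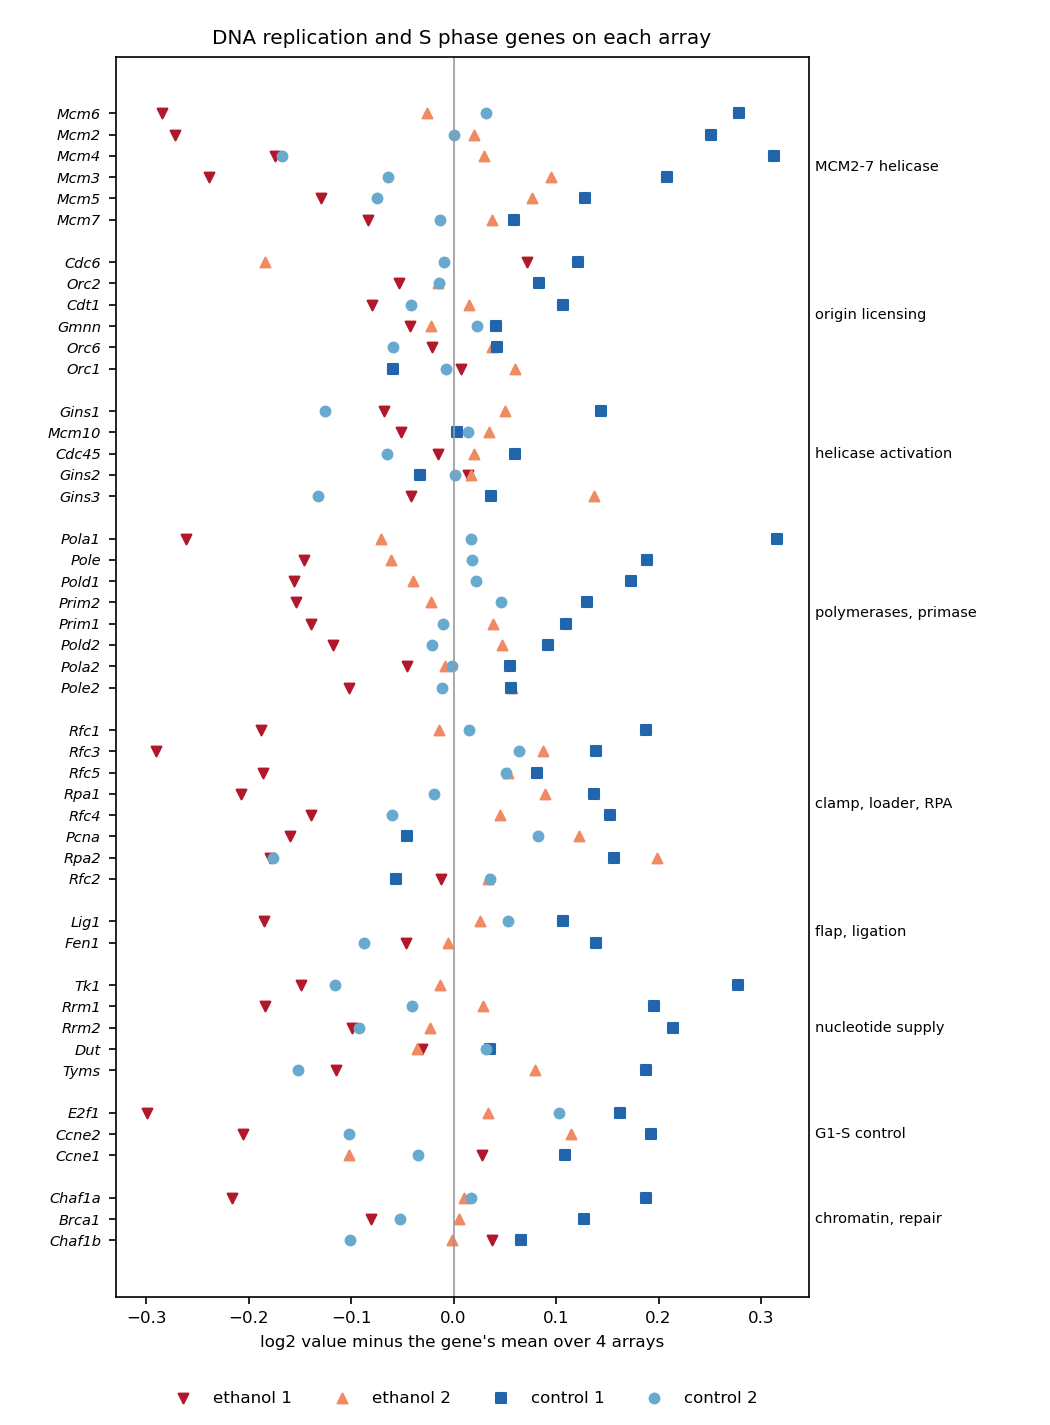
Each of the 46 genes on each array, as the log2 value minus the gene's mean over the 4 arrays, grouped by role (red and orange triangles are ethanol 1 and ethanol 2, dark squares and light circles control 1 and control 2). Control 1 is the rightmost array in 38 genes and ethanol 1 the leftmost in 33.

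Further genes of the same pathway, listed by function, were read in the same way. Of 44 other replication and S phase genes 42 had a probe set, and 27 of the 42 were below 0, at a median of -0.04. None passed the adjusted test, and 2 of the 42 were lower at an unadjusted p under 0.05, as were 1.36% of all genes. Pold4, a small subunit of polymerase delta, stood at 7.52 and 7.53 in the ethanol pools, against 7.80 and 7.75 in the control pools, at -0.26 ± 0.07. The pools of a group lay close together in Pold4, and both ethanol pools were below both control pools. Mcm8, a helicase of recombination repair, stood at 7.49 and 7.44 in the ethanol pools, against 7.75 and 7.60 in the control pools, at -0.21 ± 0.08. Dna2, a nuclease of flap processing, was at -0.16 ± 0.07, and Pole3, a histone-fold subunit of polymerase epsilon, at 0.17 ± 0.08. Both ethanol pools lay below both control pools in 7 of the 42 (16.7%, against 14.0% of all genes) and above both in 6 (14.3%, against 17.4%), shares near those of all genes.

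Of 32 regulators and checkpoint genes, activators and inhibitors alike, 30 had a probe set, 26 were below 0 and the median was -0.07, with 0 past the adjusted test. E2f4, a repressive E2F, stood at -0.19 ± 0.07. It was the only one at an unadjusted p under 0.05, where 1.36% of all genes were lower in ethanol. The G1 kinase Cdk4 stood at -0.14 ± 0.08, its cyclin Ccnd2 at -0.17 ± 0.10 and the checkpoint clamp loader Rad17 at -0.12 ± 0.08. Control 1 was the highest array in 25 of the 30. Both ethanol pools lay below both control pools in 6 of the 30 (20.0%, against 14.0% of all genes). They lay above both in 0 (against 17.4%). Of the mitosis genes, which act after S phase, 22 of 23 had a probe set. All 22 were below 0 at a median of -0.13, with 0 past the adjusted test. The groups were apart in 0 of the 22, where 14.0% of all genes had both ethanol arrays lower and 17.4% both higher. In the mitosis genes control 1 was the highest array in 22 of 22, and ethanol 2 exceeded control 2 in 22 of 22.

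Levels of other lists on the same arrays are given as the median deviation from each gene's mean over the 4 arrays. The 46 genes had -0.12 and 0.03 in the ethanol pools, against 0.13 and -0.01 in the control pools. The mitosis genes had -0.18 and 0.03 in the ethanol pools, against 0.27 and -0.12 in the control pools. Both lists thus had the same highest and lowest pool. The 12 radial glia markers had 0.02 and -0.02 in the ethanol pools, against 0.03 and -0.06 in the control pools. The 12 neuron markers had 0.02 and -0.0017 in the ethanol pools, against -0.05 and 0.02 in the control pools. These medians are taken over markers that went both ways, such as Tubb3, a neuronal tubulin, at -0.38 ± 0.11 and Snap25, a synaptic vesicle fusion protein, at 0.19 ± 0.09 (ethanol minus control), both named after their values were seen. The 8 intermediate progenitor markers had -0.06 and -0.06 in the ethanol pools, against 0.17 and -0.04 in the control pools. The 10 pericyte and meningeal markers had -0.23 and -0.04 in the ethanol pools, against 0.44 and -0.11 in the control pools. The 16 muscle genes had -0.86 and -0.02 in the ethanol pools, against 1.94 and -0.97 in the control pools. Control 1 was highest in 9 of the 10 pericyte and meningeal markers and in 7 of the 8 intermediate progenitor markers. The 4 erythroid genes with a probe set, of 8 listed, had -0.11 and 0.14 in the ethanol pools, against 0.20 and -0.21 in the control pools. The part of non-neural cells in the level of the replication genes was not tested.

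**Figure D4:**
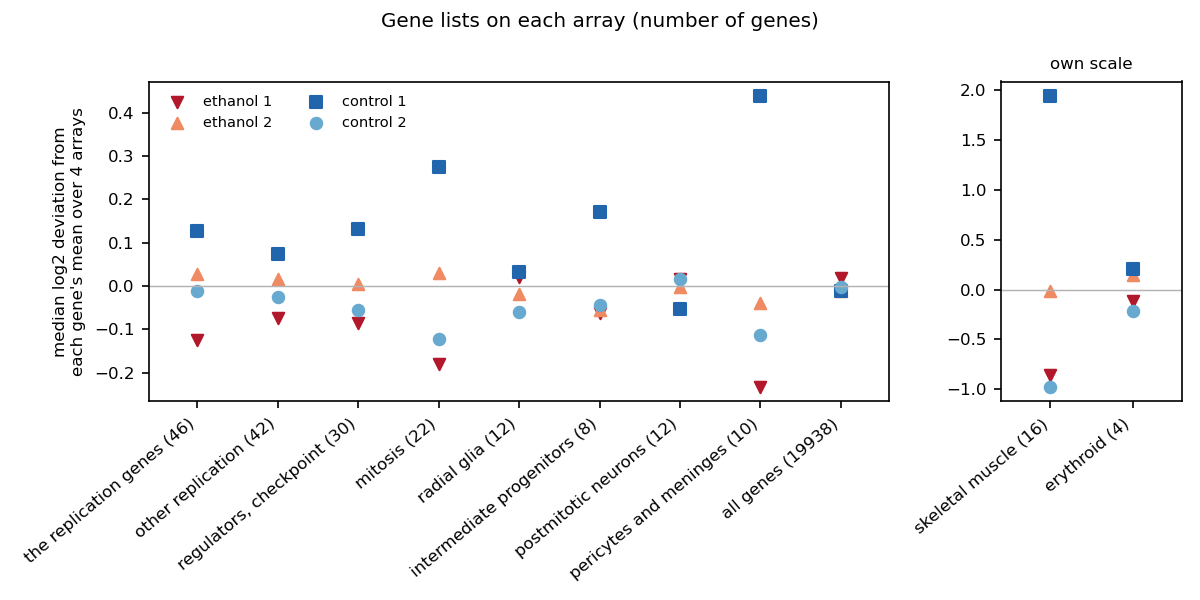
Median log2 deviation of each gene list from its genes' means over the 4 arrays (number of genes in brackets), with muscle and erythroid genes on a scale of their own. Triangles are ethanol 1 and ethanol 2, squares and circles control 1 and control 2. Control 1 is highest for the replication genes (0.13), mitosis genes (0.27), pericyte and meningeal markers (0.44) and muscle genes (1.94), and lowest for neuron markers (-0.05).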

How the data were processed

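RNA was measured on Affymetrix whole-transcript arrays. Each probe set has 1 deposited value per array, a log2 brightness, with the log base inferred from the range of values. The submitters' processing notes name Partek 6.6. How background, normalization and probe summary were done is not given in the sources, and dim values depend most on it. Per the labels' protocols, total RNA was labelled as single-stranded cDNA.

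Of 35556 probe sets, 21789 have 1 gene symbol in the platform annotation, 1621 several and 12146 none. Symbols were updated by Entrez identifier (21698 matched) through RefSeq genes of GRCm38.p6, giving 19938 genes. Limma 3.58.1 (R 4.3.3, lmFit and eBayes, two-sided) compared the groups over all genes with Benjamini-Hochberg adjustment, on 2 residual and 5.65 total degrees of freedom, and SE is the moderated one. An exact permutation test of 2 arrays against 2 cannot go below p = 0.333, and none was run. The number of arrays limits the precision. Which litters entered a pool is unknown, so p-values measure only the spread between these pools.

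Members, lists and rules were chosen with earlier results of these data known. Values on every array are given for 21 genes. These are the 10 with the smallest p, the 4 with the largest positive difference and the highest mean in each of 9 role groups. In 2 further lists the 4 genes with the smallest p are named. Pold3, Pole4, Tk2, Rrm2b and Dctd were named after their values were seen. The fit was tested on simulated data. Alternatives covered scaling, probe sets, a filter on dim genes, the variance model, a replicate block and leaving out each array.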

Additional observations from a re-analysis of the deposited data

How the results depend on the processing

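Over all genes, 0 passed the adjusted test in each setting other than leaving out an array, where 0 to 4 did (4 without control 2). The 2 replication genes at an unadjusted p under 0.05 became 0 over all probe sets, 1 among the brighter genes (where 30 of the 46 remain) and 0 to 10 with an array left out. The 10 came without ethanol 2 and a count of 9 without control 2, where 8.54% and 6.99% of all genes passed as well, against 2.94% with all arrays. At the same unadjusted threshold, 3.95% of all probe sets passed in the fit over all probe sets. In the fit of the brighter genes, 4.59% of the genes tested passed. The 15 genes with groups apart (13 lower in ethanol and 2 higher) became 14 lower and 0 higher after another quantile normalization. After median centring they were 13 lower and 1 higher. With an array left out, 22 to 41 genes had groups apart. A single array on one side leaves less to overlap, and the matching share of all genes was not counted. Whether the 46 genes stand out from all genes in these counts therefore cannot be told. The median ranged from -0.16 to -0.02, and the count below 0 from 27 to 41. With an array left out, 6 of the 21 genes given in full took either sign, namely Gins1 (-0.152 to 0.117), Pcna (-0.179 to 0.104), Chaf1b (-0.0483 to 0.119), Pold2 (-0.154 to 0.0112), Mcm7 (-0.106 to 0.0139) and Orc6 (-0.0339 to 0.0671). None of the 21 turned under another scaling, nor did Pcna, the only one with several probe sets, under their mean. The brighter genes, trend or robust variances and the replicate block leave a gene's difference unchanged, so they could turn none. The cause of the turns was not tested.

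Nothing in the labels pairs arrays by number, and over all genes the deviations of ethanol and control arrays with the same number had a correlation of -0.484. The replicate number as a block gave 0 called genes. With this block, 0 of the 46 genes (and 1.34% of all genes) had an unadjusted p under 0.05. With crossed pairing, added after seeing the data, 9 of the 46 did (and 7.34% of all genes) and 0 genes were called.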
